A study of Mus musculus with 6 samples.

Results

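The cyclins and kinases that carry a cell through G1, together with the retinoblastoma gene, were compared between Rnf40+/+ and Rnf40-/- mouse embryonic fibroblasts (MEFs). The group was defined by gene symbol and holds 9 genes: the D-type cyclins Ccnd1, Ccnd2 and Ccnd3, the E-type cyclins Ccne1 and Ccne2, the kinases Cdk2, Cdk4 and Cdk6, and Rb1. All 9 were found among the 29955 genes of the deposited RNA-seq table, and all 9 were among the 16378 genes with enough reads to be tested. The comparison asks how these genes were expressed after deletion of Rnf40, which encodes a ubiquitin ligase for histone H2B. Each genotype had 3 libraries, all from passage 3. MEFs are primary fibroblast cultures set up from embryos. The Rnf40-/- cells derive from a conditional allele with loxP sites around part of Rnf40, cut by the Cre recombinase of the ubiquitously expressed Rosa26-CreERT2 transgene once 4-hydroxytamoxifen (4-OHT) is added. The drug was given at 250 nM for 5 days and withdrawn for 3 days. The study's methods describe MEFs only from embryos homozygous for this allele with the transgene, but do not say from which embryos the Rnf40+/+ libraries came or whether those cells were exposed to 4-OHT, so the deletion, the drug and Cre activity cannot be told apart. The labels do not say whether the libraries of a genotype came from separate embryos or cultures, so the p-values measure only the spread between these libraries, which may be technical.

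Progress through G1 depends on mitogens, which raise the D-type cyclins. Cyclins D1, D2 and D3 bind and activate CDK4 and CDK6, and these kinases phosphorylate the retinoblastoma protein RB1. Hypophosphorylated RB1 holds E2F transcription factors in check, and its phosphorylation releases them. Freed E2F raises the E-type cyclins, which activate CDK2, and CDK2 phosphorylates RB1 further as cells enter S phase.

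Values are normalized counts, that is, reads of a gene divided by 1 size factor per library. The libraries held between 17053436 and 26344170 reads on genes. Rnf40+/+ replicate 3 differed more from the other Rnf40+/+ libraries (chi-square per gene 26.6 and 29.5) than these did from each other (8.19), and less than any pair of unlike genotype (78.8 to 121). Without it 7 of the 9 genes were called, all but Ccnd3 and Ccne2. The targeted gene, Rnf40, fell from 1189.5 ± 91.2 to 482 ± 39.9 normalized counts (SD, n = 3 each), with no overlap between the genotypes. This left 40.5% of the Rnf40+/+ level. The values are per gene, so RNA of cut and of uncut Rnf40 alleles cannot be told apart. Fold changes are log2 differences of Rnf40-/- from Rnf40+/+ MEFs on the log2(normalized count + 1) scale, given with the standard error (SE) and the Benjamini-Hochberg adjusted p of limma over all genes tested. An adjusted p under 0.05 is called a change, as found for 47.4% of all genes tested (24.1% lower and 23.3% higher). Of 9 fibroblast markers 8 were lower in Rnf40-/- MEFs, and their summed normalized count was 669378 to 741256 in Rnf40+/+ and 400372 to 403300.0 in Rnf40-/- libraries. Macrophage markers (1 higher and 2 lower of 7 tested) summed to 5458 to 9358 and 3414 to 3761, and endothelial markers (3 higher of 4 tested) to 51.0 to 146 and 179 to 283. Lyz2 made up most of the macrophage sum and fell (5314 ± 1867 to 2264 ± 152), as did Tyrobp, while Ptprc rose (62.6 ± 14.8 to 160.3 ± 9.38). Of the endothelial markers Pecam1 (3.75 ± 1.22 to 27.6 ± 8.34), Cdh5 (2.76 ± 2.17 to 31.6 ± 8.03) and Kdr (27.4 ± 6.47 to 84.5 ± 28.7) rose. Pecam1 and Cdh5 had only 1 to 5 reads in each Rnf40+/+ library. Tek was not called, with Rnf40+/+ replicate 1 at 115 against 11.2 and 16.0 in the other Rnf40+/+ libraries. Skeletal muscle markers (2 lower of 2 tested) summed to 1709.7 to 4886 and 436 to 498, epithelial markers (0 called of 2 tested) to 434 to 779 and 559 to 792, and adipocyte markers (1 higher of 1 tested) to 32.2 to 67.1 and 120.3 to 142. The defining markers Myod1 of muscle and Adipoq of adipocytes had 0 reads in all libraries. Myog, Myh3, Plin1 and Cidec had too few reads to be tested. Acta1 made up most of the muscle sum (2648 ± 1567 and 434 ± 22.4), and Des was also tested (224 ± 180 and 35.1 ± 7.69). Krt19 made up most of the epithelial sum (502 ± 206 and 674 ± 138), and Fabp4 nearly all of the adipocyte sum (46.7 ± 18.2 and 128.7 ± 11.4). The part of these other cell types in the results was not tested. In bulk RNA, fewer cells of a kind and less RNA per cell cannot be told apart.

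The promoters of the 3 kinases are shown because Cdk4 and Cdk2 were lower and Cdk6 was higher in Rnf40-/- MEFs. Each holds 250 bases before the start site and 50 from it, taken from RefSeq (GRCm38.p6) and found without a mismatch at 1 place in mm9, the build of the deposited data. Capitals mark CACGTG, the E-box bound by MYC and related factors, and the E2F words TTTCCCGC, TTTCGCGC, TTTGCCGC and TTTGGCGC on either strand.
Cdk4 (chr10:126500341-126500640, plus strand): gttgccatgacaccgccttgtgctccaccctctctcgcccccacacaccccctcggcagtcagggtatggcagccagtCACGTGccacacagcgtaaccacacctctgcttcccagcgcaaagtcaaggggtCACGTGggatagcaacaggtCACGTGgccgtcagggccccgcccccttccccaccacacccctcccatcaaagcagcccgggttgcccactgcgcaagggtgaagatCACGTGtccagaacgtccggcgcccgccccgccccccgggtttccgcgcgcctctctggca
Cdk2 (chr10:128142058-128142357, minus strand): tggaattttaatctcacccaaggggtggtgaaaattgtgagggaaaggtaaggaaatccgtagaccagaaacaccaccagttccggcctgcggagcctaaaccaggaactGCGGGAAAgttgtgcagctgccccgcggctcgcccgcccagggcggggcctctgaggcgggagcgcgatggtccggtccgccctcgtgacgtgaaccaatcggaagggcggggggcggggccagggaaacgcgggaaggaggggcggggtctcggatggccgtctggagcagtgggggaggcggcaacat
Cdk6 (chr5:3343643-3343942, plus strand): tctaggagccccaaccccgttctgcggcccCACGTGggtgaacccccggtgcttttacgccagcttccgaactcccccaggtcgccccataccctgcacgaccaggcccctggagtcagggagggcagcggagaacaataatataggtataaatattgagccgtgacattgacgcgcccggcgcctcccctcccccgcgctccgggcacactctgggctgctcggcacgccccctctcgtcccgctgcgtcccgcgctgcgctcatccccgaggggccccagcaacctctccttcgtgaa
The Cdk4 promoter held 4 E-boxes, which begin at -172, -118, -98 and -11 from the start site. Among all 32851 promoters listed, 7.15% held at least 1 E-box, and 8 promoters (0.0244%) held 4 or more. The Cdk6 promoter held 1 E-box, at -220. The Cdk2 promoter held 1 E2F word, read as GCGGGAAA on the strand shown, at -140, and 2.26% of all promoters held any of the E2F words. No E-box was found in the promoters of Cdk2, Ccne1 and Ccnd3, and no E2F word in those of Cdk4, Cdk6, Ccne1 and Ccnd3. The GC box GGGCGG, on either strand, was found 3 times in the Cdk4 promoter (with an overlap between a pair of them), 6 times in that of Cdk2, 4 times in that of Ccne1 and 2 times in each of the 2 Ccnd3 promoters, but not in that of Cdk6, and 35.7% of all promoters held it. CCAAT was found once in the Cdk2 promoter, at -45, and once in 1 of the Ccnd3 promoters, at -108, and 37.4% of all promoters held it. The words TGACGTCA, TGANTCA and TTTGAA, searched on both strands, were in none of the member promoters and in 1.79%, 7.81% and 17.9% of all promoters. The table held promoters for 5 of the 9 genes, namely Ccnd3, Ccne1, Cdk2, Cdk4 and Cdk6. A match is a run of letters, not a measured binding site.

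Of the 9 genes 6 fell, 2 rose and 1 did not pass the threshold in Rnf40-/- MEFs. Cdk4, Cdk2, Ccnd1, Ccne1, Ccnd2 and Ccnd3 were lower, Rb1 and Cdk6 were higher, and Ccne2 was not called. Among all genes tested 47.4% were called, 24.1% as lower and 23.3% as higher. The median log2 fold change was -0.59 over the 9 genes and -0.0035 over all genes tested. The genotypes did not overlap for any of the 9 genes, nor for 56.5% of all genes tested. The limits of the study are a mean above 15, unadjusted p under 0.05 and absolute log2 fold change above 1. The study used them with DESeq, and here they were applied to the limma results. Rb1 passed them as higher and Cdk4 as lower, as did 4.25% and 5.7% of all genes tested (9.95% in either direction).

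**Figure D1:**
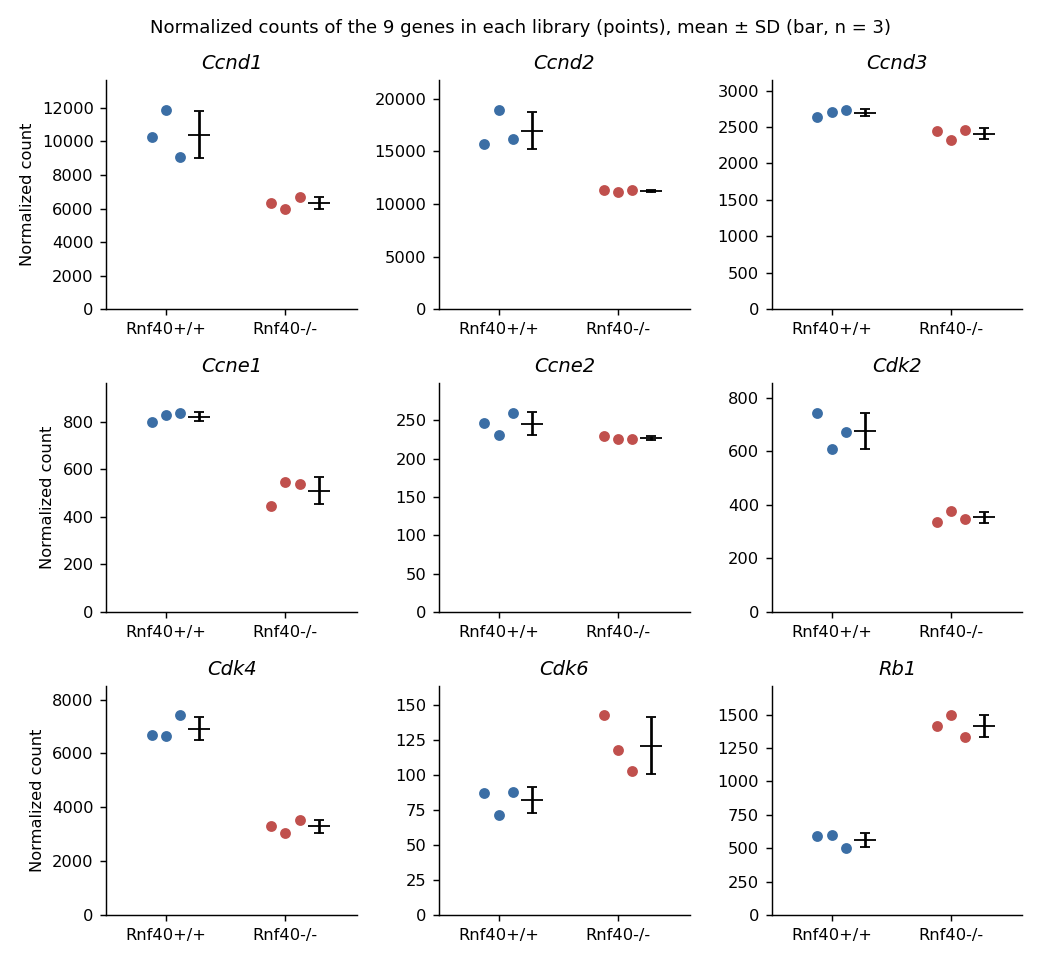
Normalized counts of the 9 genes in the 3 Rnf40+/+ and 3 Rnf40-/- libraries, each gene with its own axis from 0, with the mean and SD (n = 3). The genotypes are far apart for Cdk4 and Rb1, close for Ccnd3 and nearly touch for Ccne2 (lowest Rnf40+/+ library 230.5, highest Rnf40-/- library 229).

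The D-type cyclins open the pathway. Ccnd1 (ENSMUSG00000070348, minus strand of chromosome 7, 152115836 to 152125774 in mm9) encodes cyclin D1, a classic target of mitogen signalling. It had 10248, 11897 and 9077 normalized counts across Rnf40+/+ libraries and 6313, 5999.9 and 6672 across Rnf40-/- libraries. The Rnf40+/+ libraries varied more, yet the lowest of them was above the highest Rnf40-/- library. The mean fell from 10407 ± 1417 to 6328 ± 336 (SD, n = 3 each), with log2 fold change -0.71 (SE 0.09, adjusted p = 5.64e-05 from limma). Exons of Oraov1 on the other strand cover 21.9% of its longest coding transcript. The library kit keeps strand, but whether the counting used it is not given in the sources used here, so reads from the overlap cannot be assigned. Oraov1 also fell, from 2868 ± 273 to 2015 ± 157 normalized counts (log2 fold change -0.51, adjusted p = 0.000354 from limma), and its part in the Ccnd1 values was not tested.

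Ccnd2 (ENSMUSG00000000184, minus strand of chromosome 6, 127075797 to 127101066 in mm9) encodes cyclin D2. It had 15751, 18975 and 16199.8 normalized counts in Rnf40+/+ and 11299, 11124 and 11348 in Rnf40-/- libraries. The Rnf40-/- libraries were almost level with one another and all below the Rnf40+/+ libraries. The mean fell from 16975 ± 1746 to 11257 ± 118 (SD, n = 3 each), with log2 fold change -0.59 (SE 0.08, adjusted p = 7.12e-05 from limma). No exon of another gene overlaps Ccnd2 in the annotation.

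Ccnd3 (ENSMUSG00000034165, plus strand of chromosome 17, 47642000 to 47736632 in mm9) encodes cyclin D3 and moved least among the D cyclins. Its normalized counts were 2642, 2705 and 2738 in Rnf40+/+ and 2446, 2321 and 2456 in Rnf40-/- libraries, close to each other but without overlap. The mean fell from 2695 ± 49.1 to 2408 ± 75.2 (SD, n = 3 each), with log2 fold change -0.16 (SE 0.06, adjusted p = 0.0429 from limma), which left 89.3% of the Rnf40+/+ level. The call was lost with any library left out (adjusted p from 0.0591 to 0.155 from limma), with DESeq2 (adjusted p = 0.0609) and with no filter on low values (adjusted p = 0.0550 from limma). Stretches at least 95% identical elsewhere in the genome cover 86.7% of its longest coding transcript, and exons of Bysl on the other strand cover 16.7%. Bysl had 808 ± 94.5 and 893 ± 71.2 normalized counts (log2 fold change 0.15, adjusted p = 0.235 from limma).

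Cdk4 (ENSMUSG00000006728, plus strand of chromosome 10, 126500590 to 126504976 in mm9) encodes a kinase that the D cyclins activate. It had 6690.1, 6647 and 7409.9 normalized counts across Rnf40+/+ libraries and 3289, 3045 and 3526 across Rnf40-/- libraries. Every Rnf40-/- library was below every Rnf40+/+ library, with a gap of 47.0% of the lowest Rnf40+/+ value. The mean fell from 6916 ± 429 to 3287 ± 240.1 (SD, n = 3 each), with log2 fold change -1.07 (SE 0.07, adjusted p = 3.93e-07 from limma), which left 47.5% of the Rnf40+/+ level. This was the largest fall of the 9 genes, and 10.4% of all genes tested had a larger absolute change. Exons of Tspan31 on the other strand cover 29.4% of the longest coding transcript of Cdk4, and stretches at least 95% identical elsewhere cover 5.26%. Tspan31 had 2553 ± 72.5 and 2515 ± 153 normalized counts (log2 fold change -0.02, adjusted p = 0.803 from limma).

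Cdk6 (ENSMUSG00000040274, plus strand of chromosome 5, 3343893 to 3523218 in mm9) encodes the other kinase of the D cyclins and moved the opposite way. Its normalized counts were 87.2, 71.4 and 87.8 in Rnf40+/+ and 143, 118 and 103 in Rnf40-/- libraries, and they rest on between 70 and 140 reads per library. Stretches at least 95% identical elsewhere in the genome cover 9.05% of its longest coding transcript. Exons of Gm17590 on the other strand cover 1.61%, and the part of either in the Cdk6 values was not tested. The genotypes did not overlap, and the Rnf40-/- libraries were spread more widely. The mean rose from 82.1 ± 9.32 to 121 ± 20.1 (SD, n = 3 each), with log2 fold change 0.55 (SE 0.18, adjusted p = 0.0241 from limma). The call was lost without Rnf40+/+ replicate 2 (0.45, adjusted p = 0.0858), without Rnf40-/- replicate 1 (0.43, adjusted p = 0.122) and without Rnf40-/- replicate 2 (0.56, adjusted p = 0.0594, all from limma).

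Ccne1 (ENSMUSG00000002068, minus strand of chromosome 7, 38883003 to 38892553 in mm9) encodes cyclin E1, which acts after the D cyclins. It had 800.1, 827 and 838 normalized counts in Rnf40+/+ and 444, 547 and 538 in Rnf40-/- libraries. The Rnf40+/+ libraries lay close together above all Rnf40-/- libraries, of which replicate 1 was lowest. The mean fell from 822 ± 19.7 to 509.5 ± 57.3 (SD, n = 3 each), with log2 fold change -0.69 (SE 0.09, adjusted p = 8.26e-05 from limma). Its relative Ccne2 (ENSMUSG00000028212, plus strand of chromosome 4, 11118498 to 11131926 in mm9), which encodes cyclin E2, had 247, 230.5 and 260.3 normalized counts in Rnf40+/+ and 229, 225 and 226 in Rnf40-/- libraries. The genotypes were separated by 0.452% of the lowest Rnf40+/+ value. The means were 246 ± 14.97 and 227 ± 2.24 (SD, n = 3 each), and the log2 fold change of -0.11 (SE 0.11, 95% interval -0.35 to 0.12) did not pass the threshold (adjusted p = 0.413 from limma). Exons of Ints8 on the other strand cover 20.3% of the longest coding transcript of Ccne2. Ints8 rose from 1276 ± 58.5 to 1910.0 ± 149 normalized counts (log2 fold change 0.58, adjusted p = 6.05e-05 from limma), and its part in the Ccne2 values was not tested.

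Cdk2 (ENSMUSG00000025358, minus strand of chromosome 10, 128134995 to 128142107 in mm9) encodes the kinase that the E cyclins activate. It had 745, 609.8 and 672 normalized counts across Rnf40+/+ libraries and 335, 377 and 348 across Rnf40-/- libraries, well apart. The mean fell from 676 ± 67.8 to 354 ± 21.1 (SD, n = 3 each), with log2 fold change -0.93 (SE 0.10, adjusted p = 1.20e-05 from limma). When single libraries were omitted, its log2 fold change ranged between -1.001 and -0.86, the former without Rnf40+/+ replicate 2.

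Rb1 (ENSMUSG00000022105, minus strand of chromosome 14, 73583480 to 73725629 in mm9) encodes the pocket protein that these kinases phosphorylate. Its normalized counts were 590.0, 598 and 502 across Rnf40+/+ libraries and 1412, 1494 and 1330.4 across Rnf40-/- libraries. Every Rnf40-/- library was far above every Rnf40+/+ library. The mean rose from 563 ± 53.4 to 1412 ± 82.1 (SD, n = 3 each), with log2 fold change 1.33 (SE 0.09, adjusted p = 2.98e-07 from limma), or 2.51 times the Rnf40+/+ level. This was the largest change of the 9 genes, and 6.77% of all genes tested had a larger absolute change. When single libraries were omitted, it ranged between 1.25 and 1.37. Exons of Rcbtb2 on the other strand cover 2.26% of the longest Rb1 coding transcript, and Rcbtb2 fell, from 889.9 ± 29.2 to 495 ± 10.3 normalized counts (log2 fold change -0.84, adjusted p = 3.36e-06 from limma).

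**Figure D2:**
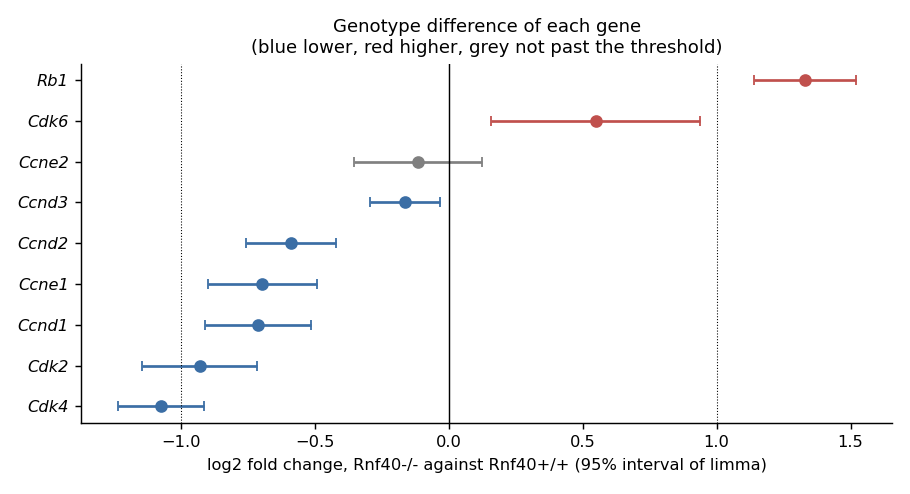
Log2 fold change of each of the 9 genes in Rnf40-/- against Rnf40+/+ MEFs with its 95% interval from limma. Cdk4 at -1.07 and Rb1 at 1.33 lie beyond the fold limits of the study, and the interval of Ccne2, -0.35 to 0.12, includes 0.

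Levels of different genes were compared as normalized count per kb of the longest coding transcript. In Rnf40+/+ MEFs the level per kb was highest for Cdk4 at 3369 ± 209 (SD, n = 3), followed by Ccnd2 at 2978 ± 306 and Ccnd1 at 2783 ± 379. The ranges of Cdk4 and Ccnd2 overlapped, with Cdk4 above Ccnd2 in 2 of 3 libraries, so these neighbours did not differ beyond their spread. The ranges of Ccnd2 and Ccnd1 overlapped too, but Ccnd2 was above Ccnd1 within 3 of 3 libraries. The order went on with Ccnd3 at 1275 ± 23.3, Ccne1 at 411 ± 9.84, Cdk2 at 278 ± 27.9, Rb1 at 121 ± 11.5, Ccne2 at 81.8 ± 4.98 and Cdk6 at 21.99 ± 2.49 per kb, with no overlap between neighbours. In Rnf40-/- MEFs Ccnd2 stood first at 1975 ± 20.7 per kb, and Ccnd1 at 1692 ± 89.9 and Cdk4 at 1601 ± 117 had overlapping ranges, with Ccnd1 above Cdk4 within 3 of 3 libraries. Ccnd3 came next at 1139 ± 35.6 per kb. Rb1 stood below Cdk2 in Rnf40+/+ MEFs and above Ccne1 in Rnf40-/- MEFs, at 303 ± 17.6 per kb against 255 ± 28.7 for Ccne1 and 145 ± 8.68 for Cdk2. Ccne2 at 75.5 ± 0.746 and Cdk6 at 32.4 ± 5.39 per kb were lowest in Rnf40-/- MEFs too. The length used bears on these levels and on their order between genes. Coding transcripts range from 714 to 2053 bases for Cdk4, from 608 to 2000 for Ccne1 and from 2470 to 3735 for Cdk6.

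**Figure D3:**
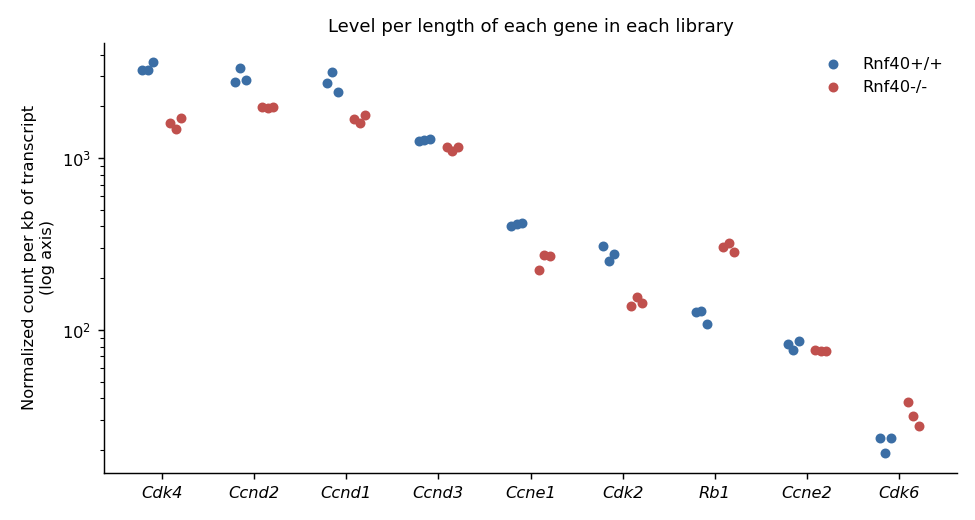
Normalized count per kb of the longest coding transcript (log axis) of each gene in each library of both genotypes. Cdk4 goes from 3369 to 1601, below Ccnd1 in each Rnf40-/- library, and Rb1 from 121 to 303, above Ccne1 and Cdk2.

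Ratios between partners were taken per length of the longest coding transcript within each library, so their size depends on the length used. With 3 libraries against 3 the two-sided exact permutation test cannot give a p below 0.1, and after Benjamini-Hochberg adjustment over the 8 ratios compared the lowest adjusted p was 0.133, so no ratio could pass 0.05. Cdk4 was 138, 167 and 152 times Cdk6 across Rnf40+/+ libraries and 41.6, 46.6 and 61.7 times Cdk6 across Rnf40-/- libraries. The log2 ratio was 7.25 ± 0.14 and 5.62 ± 0.29 (SD, n = 3 each), a difference of -1.62 without overlap (exact permutation p = 0.1). Cdk4 nonetheless held most of the summed level of the 3 kinases in both genotypes, 91.8% ± 0.869 and 90.0% ± 1.07, and Cdk6 held 0.599% ± 0.0528 and 1.83% ± 0.348. The log2 ratio of Cdk2 to Cdk4 was -3.60 ± 0.17 and -3.46 ± 0.18, with overlap (exact permutation p = 0.5, n = 3 each).

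Among the D cyclins, Ccnd3 made up 18.5%, 16.4% and 19.7% of the summed level per length across Rnf40+/+ libraries and 24.0%, 23.6% and 23.5% across Rnf40-/- libraries, all of the latter above all of the former. The share of Ccnd1 was 39.5% ± 2.16 and 35.2% ± 0.855 (SD, n = 3 each), without overlap, and that of Ccnd2 42.3% ± 1.24 and 41.1% ± 0.803, with overlap. How reads shared by Ccnd3 and its near-identical copies were assigned is not given, which limits its level in these shares and ratios. The log2 ratio of Ccnd1 to Ccnd3 differed by -0.55 and that of Ccnd2 to Ccnd3 by -0.42, both without overlap (exact permutation p = 0.1 each, n = 3). That of Ccnd1 to Ccnd2 differed by -0.12, with overlap (exact permutation p = 0.2, n = 3). Among the E cyclins, Ccne1 was 4.85, 5.38 and 4.83 times Ccne2 in Rnf40+/+ and 2.90, 3.64 and 3.58 times Ccne2 in Rnf40-/- libraries, without overlap (exact permutation p = 0.1, n = 3).

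Cyclins were also set against kinases. The summed level of the D cyclins per kb was 7036 ± 659.7 in Rnf40+/+ and 4806 ± 143 in Rnf40-/- MEFs (SD, n = 3 each), or 68.3% of the Rnf40+/+ level, and that of the 3 kinases was 3668 ± 213 and 1779 ± 109, or 48.5%. D cyclins stood to the sum of Cdk4 and Cdk6 at 2.06, 2.39 and 1.81 across Rnf40+/+ libraries and 2.94, 3.07 and 2.83 across Rnf40-/- libraries. The log2 ratio differed by 0.51 without overlap (exact permutation p = 0.1, n = 3). The summed E cyclins had 493 ± 11.99 and 330.2 ± 27.9 normalized counts per kb, or 67.0% of the Rnf40+/+ level, and their log2 ratio to Cdk2 differed by 0.35 without overlap (exact permutation p = 0.1, n = 3). These are ratios of RNA, and the table holds no protein values.

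**Figure D4:**
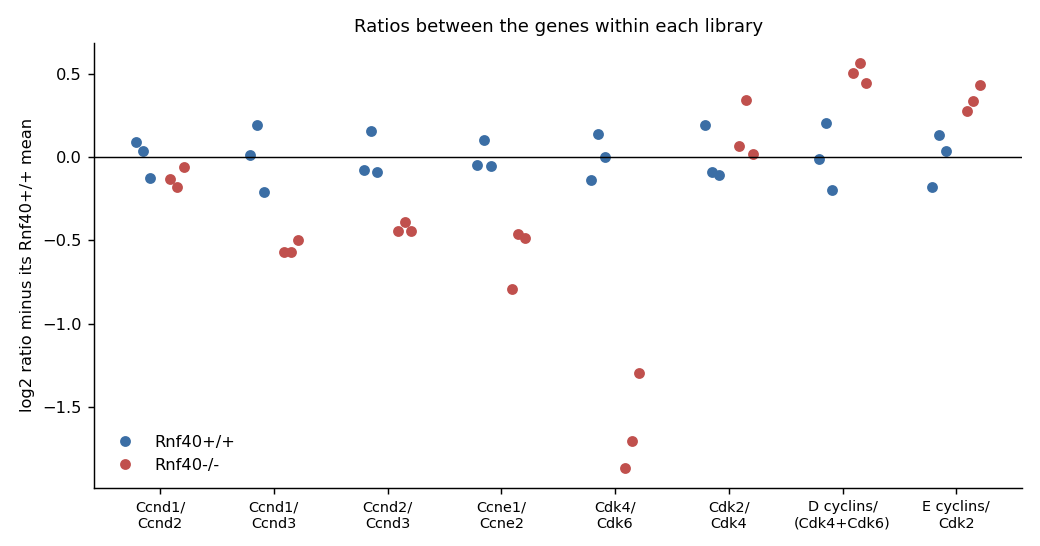
The 8 log2 ratios between genes or sums of genes in each library of both genotypes, per length. The ratio of Cdk4 to Cdk6 differs most between the genotypes, by -1.62, and the libraries overlap for Ccnd1 to Ccnd2 and for Cdk2 to Cdk4.

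The genes that act on this group were described by lists. Of the 7 CDK inhibitors tested 3 were lower and 0 higher, with a median log2 fold change of -0.66. Among all genes tested 24.1% were lower and 23.3% higher, 47.4% in either direction. Cdkn1a, the p53 target that encodes p21, had 13556, 14880.3 and 14639 normalized counts in Rnf40+/+ and 8930.2, 8937 and 9466 in Rnf40-/- libraries (log2 fold change -0.66, adjusted p = 8.20e-06 from limma). Cdkn2a, which encodes the CDK4 and CDK6 inhibitor p16 and also ARF, fell from 6869 ± 759.6 to 3447 ± 352 (log2 fold change -0.99, adjusted p = 4.91e-06 from limma), and Cdkn1b, which encodes p27, from 598 ± 33.6 to 346 ± 23.4 (log2 fold change -0.79, adjusted p = 2.82e-05 from limma). Cdkn1c was not called (log2 fold change -0.85, adjusted p = 0.0600 from limma), with Rnf40+/+ replicate 3 at 703 against 199 and 249.8 in the other Rnf40+/+ libraries. Cdkn2b, Cdkn2c and Cdkn2d had log2 fold changes of 0.11, -0.11 and -0.37 and were not called.

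Downstream, of 12 pocket protein and E2F genes 7 were lower and 0 higher (median log2 fold change -0.41). The shares over all genes tested were 24.1% and 23.3%. The largest falls were those of the repressors E2f8, from 118 ± 17.0 to 29.4 ± 8.16 (log2 fold change -1.99, adjusted p = 3.08e-05 from limma), and E2f7, from 102 ± 3.04 to 39.5 ± 10.1 (log2 fold change -1.37, adjusted p = 0.000279 from limma). The relatives of Rb1, named here after their values were seen, did not rise with it: Rbl1 had a log2 fold change of -0.57 (adjusted p = 0.00666) and Rbl2 of 0.08 (adjusted p = 0.415, both from limma). Of 18 S phase genes that E2F controls 16 were lower and 0 higher (median -1.50), led by the thymidine kinase gene Tk1, from 304 ± 28.4 to 49.3 ± 1.52 (log2 fold change -2.60, adjusted p = 9.28e-08 from limma), and the replicative helicase gene Mcm3, from 445 ± 109 to 77.0 ± 15.03 (log2 fold change -2.51, adjusted p = 7.44e-07 from limma). The 2 not called, Pola1 and Tyms, were named after their values were seen.

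Of 13 genes of CDK activation and cyclin turnover 8 were lower and 1 higher (median -0.43), against 24.1% and 23.3% of all genes tested. Skp2, whose product marks p27 for degradation, fell from 299 ± 27.3 to 101 ± 6.35 (log2 fold change -1.55, adjusted p = 2.11e-06 from limma), and its cofactor gene Cks1b from 875 ± 83.0 to 359 ± 43.2 (log2 fold change -1.28, adjusted p = 2.00e-06 from limma). Gsk3b, whose kinase phosphorylates cyclin D1, rose from 2179 ± 124 to 2938 ± 109 (log2 fold change 0.43, adjusted p = 0.000238 from limma). Of 18 other cyclins tested 5 were lower and 3 higher (median -0.10), shares near those of all genes tested, 24.1% and 23.3%. The mitotic cyclins Ccnb2, from 334 ± 39.0 to 33.3 ± 9.61 (log2 fold change -3.32, adjusted p = 2.28e-07 from limma), and Ccnb1, from 372 ± 86.4 to 39.0 ± 12.4 (log2 fold change -3.24, adjusted p = 5.90e-07 from limma), fell most, and Ccnt1 (log2 fold change 0.48, adjusted p = 0.00536 from limma) and Ccni (log2 fold change 0.39, adjusted p = 0.00224 from limma) rose most. Of 16 other CDKs 5 were lower and 4 higher (median -0.09), with Cdk1, the mitotic kinase gene (log2 fold change -2.05, adjusted p = 1.15e-07 from limma), and Cdk18 (log2 fold change -0.79, adjusted p = 4.33e-06 from limma) lowest and the transcriptional kinase genes Cdk13 (log2 fold change 0.47, adjusted p = 0.000326 from limma) and Cdk12 (log2 fold change 0.41, adjusted p = 0.000701 from limma) highest. The shares of CDKs called were likewise near those of all genes tested. These lists share Ccna2, Ccnh and Cdk7.

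**Figure D5:**
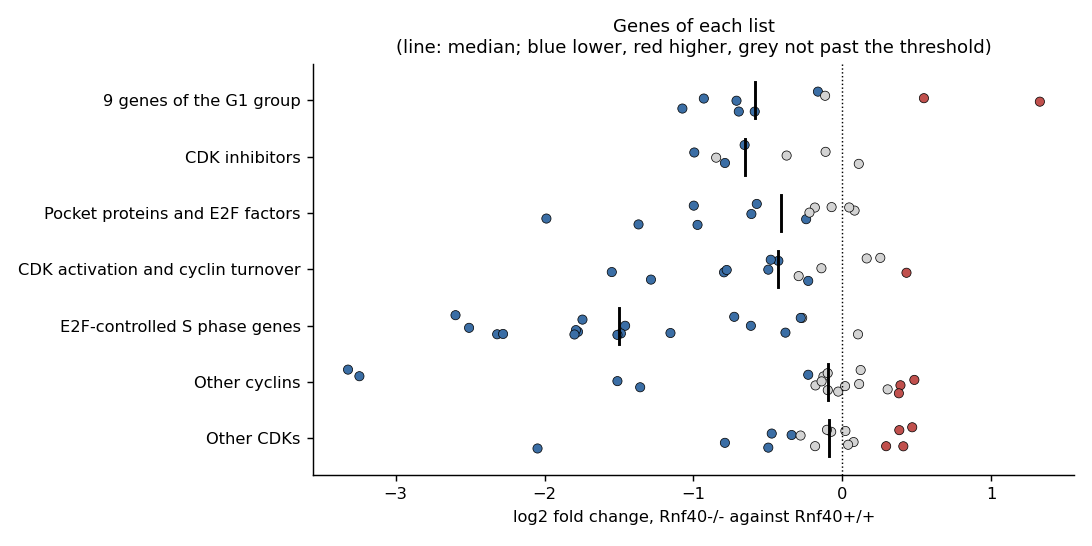
Log2 fold changes in Rnf40-/- against Rnf40+/+ MEFs for the 9 genes and for each pathway list, 1 point per gene tested. The S phase genes lie lowest, with a median of -1.50, and the other cyclins and other CDKs are centred near 0, with medians of -0.10 and -0.09.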

How the data were processed

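Total RNA of 3 Rnf40+/+ and 3 Rnf40-/- MEF libraries was sequenced with a directional kit. Per the submitters' processing notes, reads were mapped to mm9 with Bowtie2 2.1.0 and normalized with DESeq 1.14.0. The study's methods name the reference transcriptome of mm9 as the target of the mapping. The counting tool and its strand setting are not given in the sources used here. The deposited signal values are normalized counts made by the authors, that is, reads divided by 1 size factor per library. Each value was a whole multiple of the value of 1 read (100% of values, within 0.001 reads), so reads were recovered for the count tests and for depth (17053436 to 26344170 reads on genes). Depth limits low genes, since 3 reads equal 2.40 to 3.58 normalized counts.

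Genes were filtered on recovered reads with filterByExpr of edgeR (16378 of 29955 kept). The main test was limma 3.58.1 in R 4.3.3 on log2(normalized count + 1) with genotype as the only term and a mean-variance trend, adjusted by Benjamini-Hochberg over all genes tested. Ratios were tested by exact two-sided permutation (scipy 1.17.1). The limma, edgeR and DESeq2 tests, but not the permutation test, were tested on simulated data. How well they recover changes as small as those of Ccnd1, Ccnd2, Ccnd3, Ccne1, Ccne2, Cdk2 and Cdk6 was not tested. Alternatives were edgeR 4.0.16 and DESeq2 1.42.0 on recovered reads, upper-quartile and TMM scaling, no filter or at least 10 reads in every library, pseudocounts of 0.1 and 10, a replicate block, and each library left out in turn. Lengths, positions and exon overlaps are from GENCODE vM1 on mm9, and promoters from RefSeq.

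The genes, lists and tests were chosen with earlier results of these data known. The text names the 9 genes, Rnf40, all CDK inhibitors, from each list the 2 genes with the largest called rise and the 2 with the largest called fall, and the 3 genes with the nearest profile to the gene that rose most and to the gene that fell most.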

Additional observations from a re-analysis of the deposited data

How the results depend on the processing

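The fold changes of the 9 genes and the 8 ratios kept their direction under the alternatives run for them. The replicate block could not change a direction, because the design is balanced. The median log2 fold change of all genes tested lay between -0.0141 and 0.0334 and changed sign among the alternatives. The split of all calls, 3809 higher and 3955 lower, turned to 4001 higher and 3844 lower with no filter on low values, and to 3587 and 3531 without Rnf40+/+ replicate 2. Of the 9 genes, the number called higher was 2, and 1 to 2 when single libraries were omitted, being 1 without Rnf40+/+ replicate 2, Rnf40-/- replicate 1 or Rnf40-/- replicate 2, where Cdk6 lost its call. The number called lower fell from 6 to 5 with each library left out, where Ccnd3 lost its call. The number past the limits of the study as lower was 1 to 2 with each library left out, and was 2 without Rnf40+/+ replicate 2, where Cdk2 also passed. The number of genes of CDK activation and cyclin turnover called higher was 2 with edgeR, with TMM scaling and with the replicate block, against 1, and 1 to 2 with each library left out. The labels number the libraries 1 to 3 in both genotypes, but same-numbered libraries deviated together little (correlations 0.0118 to 0.0212), and no library correlated best with its own number. With the replicate block 8217 genes were called, against 7764 without it, and 8 of the 9 genes. Few reads limit Cdk6, and 3 libraries per genotype limit the ratios.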

Other observations

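The genes whose profile was most like that of Rb1 and of Cdk4 were sought over the 6 libraries, as the smallest Euclidean distance between log2 profiles centred on their own mean, among 15499 genes with a mean normalized count above 15. For Rb1 they were Herc3 (distance 0.0752, log2 fold change 1.33), Osbpl3 (distance 0.0936, log2 fold change 1.26) and Tjp1 (distance 0.102, log2 fold change 1.37). For Cdk4 they were Numbl (distance 0.0970, log2 fold change -1.12), Emilin1 (distance 0.0988, log2 fold change -1.10) and Gstp2 (distance 0.0999, log2 fold change -1.09). These are descriptions over 6 libraries of 2 genotypes.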
